A study of Mus musculus with 2 samples.

Results

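The 5 genes of the collapsin response mediator protein (CRMP) family, Crmp1, Dpysl2, Dpysl3, Dpysl4 and Dpysl5, were read out in the hindbrain of newborn mice. They were found by Ensembl identifier among the 43309 nuclear mouse genes of the gene tables, and all 5 were listed. RNA came from a single hindbrain each of pup 1 and pup 3, both of strain B6NCrl at postnatal day 0, so the 2 libraries form 1 group. The input of each library was 13 pg of RNA above 200 nt, which the labels call 1 cell-equivalent, and the labels link a Smart-seq protocol, an amplification method for very small RNA inputs. The RNA is that of a tissue and not of 1 sorted cell. Both pups carry the same donor record, their sex was not collected, and no treatment or mutation is named.

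CRMPs are cytosolic phosphoproteins of neurons. They bind tubulin dimers and actin regulators and act in growth cones, where they relay the semaphorin 3A signal that makes an axon turn away or collapse. Phosphorylation by Cdk5 and Gsk3b lowers the affinity of CRMP2, the product of Dpysl2, for tubulin. The family resembles dihydropyrimidinase, the liver enzyme encoded by Dpys, but its members lack that enzyme's activity. Dpysl2 (CRMP2) promotes axon growth, Dpysl3 encodes CRMP4, which also bundles actin, Dpysl4 encodes CRMP3, Crmp1 acts in semaphorin signalling and neuron migration, and Dpysl5 (CRMP5) is the most divergent member.

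The short coding stretch that opens 3 of the genes shows how alike and yet how separable the members are. These are the coding parts of the first coding exons of Dpysl2-201 (chr14:66868330-66868368, minus strand), Crmp1-201 (chr5:37246058-37246096, plus strand) and Dpysl4-201 (chr7:139086123-139086161, plus strand), GRCm38 coordinates with GENCODE M21 transcripts. Capitals mark the 24 of 39 bases that are identical in all 3.
Dpysl2-201: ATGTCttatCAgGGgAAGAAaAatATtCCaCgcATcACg
Crmp1-201: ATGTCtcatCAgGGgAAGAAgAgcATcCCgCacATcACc
Dpysl4-201: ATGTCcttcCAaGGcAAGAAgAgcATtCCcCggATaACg
Dpysl2-201 and Crmp1-201 shared 31 of the 39 bases, Dpysl2-201 and Dpysl4-201 shared 28, and Crmp1-201 and Dpysl4-201 shared 27. Over the whole coding sequence, nucleotide identity was highest between Dpysl2 and Crmp1, at 74.6%, and was 74.0% between Dpysl2 and Dpysl4 and 73.7% between Dpysl2 and Dpysl3. Dpysl5 stood apart from the other 4, with identities between 61.5% and 62.9%. The longest run of identical bases in any of the 10 pairs was 29, and no pair shared a stretch of 100 bases. The authors' posterior standard deviation of the gene's count was 0 for all 5 genes in both libraries, so the tables carry no uncertainty over which gene the reads belong to.

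Both libraries were deep for their input, with a total expected count of 35462381 in pup 1 and 29866728 in pup 3. An expected count is an estimate in which a read that fits several transcripts is divided among them. Levels are given as TPM, which corrects for transcript length and scales each library to the same total, here taken over nuclear genes. Spike-ins took 2.31% and 2.18% of the counts in pup 1 and pup 3, and mitochondrial genes 3.33% and 3.11%. At a threshold of 5 expected counts, 10735 protein-coding genes were detected in pup 1 and 9272 in pup 3. The labelled tissue was checked on its markers: all 6 hindbrain markers were detected in both pups, among them Meis1 at 228 and 195 TPM and Hoxb5 at 93.2 and 124 TPM in pup 1 and pup 3. A pair of them barely reached the threshold in 1 pup, Hoxa3 with 5 counts in pup 1, against 232 in pup 3, and Hoxb3 with 150.4 counts in pup 1, against 5.98 in pup 3. The forebrain markers Emx1, Dlx1, Dlx2 and Lhx2 had 0 counts in both. A floor of 3 counts for those 4 genes was 0.0868 to 0.155 TPM. Neurod6, another forebrain marker, stood at 18.6 TPM in pup 1, against 49.4 TPM in pup 3.

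All 5 CRMP genes were detected in both pups, against 37.8% of all protein-coding genes, and all ranked among the top 11.4% of protein-coding genes by level in each. Together they held 2958 TPM in pup 1, against 2448 TPM in pup 3 (2703 ± 361, SD, n = 2), which was 0.296% and 0.245% of all nuclear TPM. The 243218 and 151832 expected counts behind these sums in pup 1 and pup 3 made counting error small beside the difference between pups, though amplified reads are not independent molecules. In tissue RNA, fewer cells of a type and less RNA per cell cannot be told apart. With 1 group and 1 library per pup, no difference has a replicate check and no test was possible.

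Dpysl2, on chr14:66802864-66868688 (minus strand), had 160185 expected counts in pup 1 and 63201 in pup 3. Its level was 1749 TPM in pup 1, against 783 TPM in pup 3 (1266 ± 683, SD, n = 2), which made it the gene of rank 38 among protein-coding genes in pup 1 and rank 148 in pup 3. The difference was 2.23-fold, with pup 1 higher, a log2 ratio of 1.16 on TPM plus a pseudocount of 1. Dpysl2 was the leading member in pup 1, where it held 59.1% of the family's TPM.

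Dpysl3, on chromosome 18 (minus strand), had the opposite order of pups. It had 37837 expected counts and 543 TPM in pup 1, and 47100 expected counts and 962 TPM in pup 3 (753 ± 296 TPM, SD, n = 2). Its rank among protein-coding genes was 258 in pup 1 and 112 in pup 3, where it was the leading member of the family by TPM with 39.3% of the sum. Pup 1 had 0.565 times the level of pup 3, a log2 ratio of -0.82. The effective length that the tables used for Dpysl3, which follows the mix of its transcripts, was 3362 bases in pup 1 and 2680 in pup 3. With 1 common effective length in both pups, an alternative added after seeing the data, the log2 ratio was -0.50.

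Crmp1, on chr5:37241940-37292133 (plus strand), was likewise lower in pup 1. It stood at 334 TPM from 19448 expected counts in pup 1 and at 492 TPM from 25236 expected counts in pup 3 (413 ± 111 TPM, SD, n = 2), a log2 ratio of -0.56. In both pups Dpysl3 lay above Crmp1, by 1.63 times in pup 1 and 1.96 times in pup 3.

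Dpysl5 and Dpysl4 were the lower members. Dpysl5, on chr5:30711564-30799375 (plus strand), had 156 TPM in pup 1, against 134 TPM in pup 3 (145 ± 15.6, SD, n = 2), from 15804 and 12257 expected counts. It was the member whose level varied least between pups, with a log2 ratio of 0.22. Dpysl4, on chr7:139086001-139102704 (plus strand), had 176 TPM in pup 1, against 77.5 TPM in pup 3 (127 ± 69.7, SD, n = 2), from 9944 and 4038 expected counts. Its 2.27-fold difference, log2 ratio 1.17, was close to that of Dpysl2 and ran the same way.

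**Figure D1:**
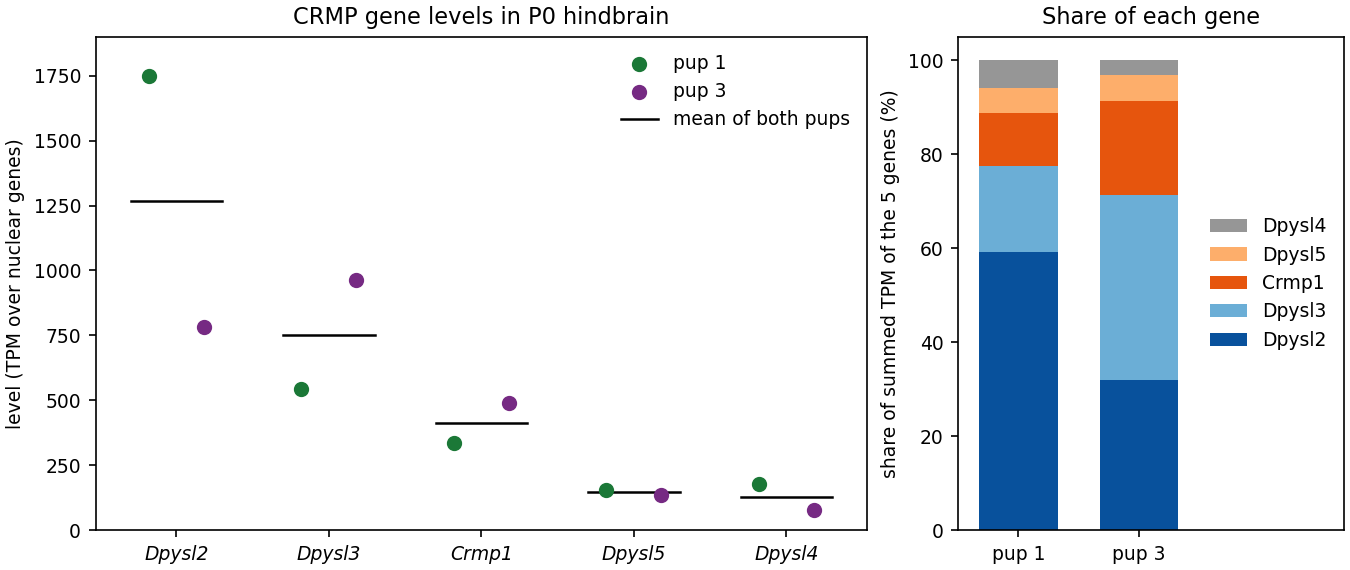
Level of each CRMP gene in TPM over nuclear genes (linear axis) in pup 1 and pup 3, with points for the libraries and lines for their mean, beside each member's share of the family's summed TPM. Dpysl2 leads in pup 1 with 59.1% and Dpysl3 leads in pup 3 with 39.3%, while Dpysl5 holds 5.29% and 5.49%.

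The order of the members was therefore only partly the same in the 2 pups. In pup 1 it ran Dpysl2, Dpysl3, Crmp1, Dpysl4, Dpysl5, and in pup 3 it ran Dpysl3, Dpysl2, Crmp1, Dpysl5, Dpysl4. The ranges of Dpysl2 (783 to 1749 TPM) and Dpysl3 (543 to 962 TPM) overlapped, and that of Dpysl5 (134 to 156 TPM) lay inside that of Dpysl4 (77.5 to 176 TPM). The separations that held in both libraries were Dpysl2 and Dpysl3 above Crmp1, whose highest value was 492 TPM, and Crmp1, whose lowest was 334 TPM, above the remaining pair.

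As shares of the family's TPM, Dpysl2 took 59.1% in pup 1 and 32.0% in pup 3, and Dpysl3 took 18.4% and 39.3%. Crmp1 took 11.3% and 20.1%, Dpysl5 5.29% and 5.49%, and Dpysl4 5.95% and 3.17%, with pup 1 given before pup 3. The ratio of Dpysl2 to Dpysl3 was 3.22 in pup 1 and 0.814 in pup 3. This change of lead belongs to the length-corrected scale: as a share of expected counts Dpysl2 was the leading member in both, with 65.9% in pup 1 and 41.6% in pup 3, against 15.6% and 31.0% for Dpysl3.

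None of the 5 members differed by at least 4-fold between pups. Among the 11245 protein-coding genes with at least 50 expected counts in a library, 27.7% were at least 4-fold higher in pup 1 and 18.3% at least 4-fold higher in pup 3. At 2-fold, Dpysl2 and Dpysl4 were higher in pup 1 (35.6% of genes tested) and 0 members were higher in pup 3 (28.7%). The median absolute log2 ratio was 0.82 for the members and 1.46 for all genes tested. Among the 3363 genes with a mean of at least 50 TPM, to which all 5 members belong, it was 0.71. Of those genes, 4.40% and 6.39% passed 4-fold with pup 1 or pup 3 higher, and 14.9% and 20.6% passed 2-fold. The signed median was 0.22 for the members, 0.14 for all genes tested and -0.11 at this level.

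**Figure D2:**
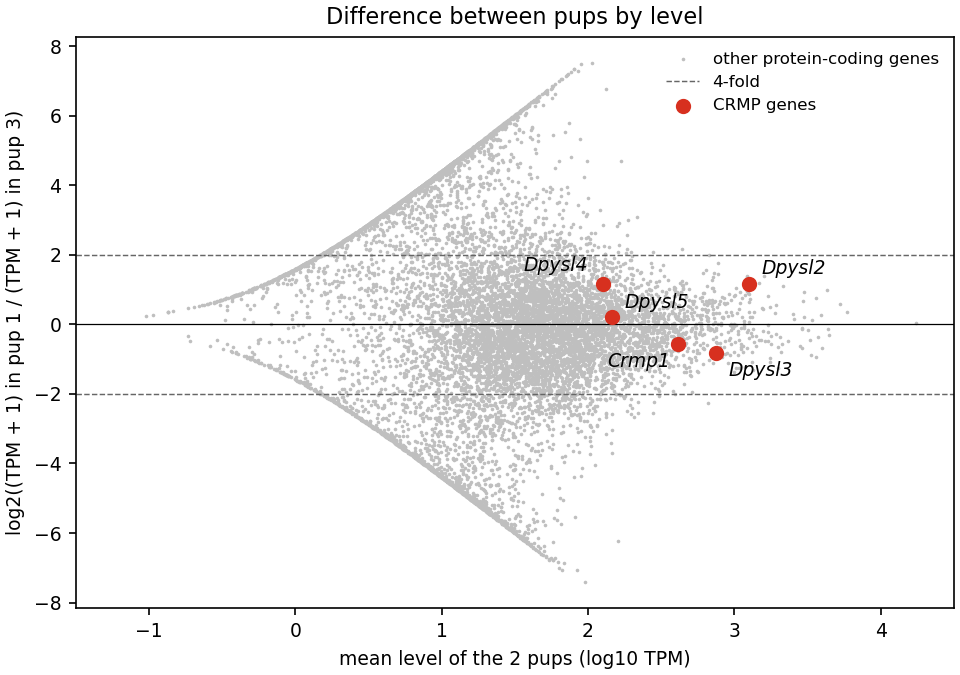
Log2 ratio of pup 1 over pup 3 (TPM plus a pseudocount of 1) against mean level (log10 TPM) for the 11245 protein-coding genes tested, with the 5 CRMP genes named. Dpysl2 and Dpysl4 lie above 0 at 1.16 and 1.17, Dpysl3 and Crmp1 lie below 0 at -0.82 and -0.56, and at the right of the plot, where the members lie, the points are narrower around 0 than in its middle.

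The neuronal and glial markers of the same libraries give the setting of these levels. The 6 pan-neuronal markers, all detected in both pups, summed to 1865 TPM in pup 1, against 1613 TPM in pup 3, led by Nefl at 958 and 496 TPM and Snap25 at 581 and 603 TPM. Of 6 young-neuron markers, 5 were detected in both, with sums of 4219 TPM in pup 1, against 3489 TPM in pup 3. Their leaders were Stmn2, a tubulin-binding protein of growing axons, at 2301 and 1554 TPM, and Gap43, a growth-cone protein, at 1696 and 1728 TPM. Nhlh1 of that list had 0 counts in both.

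Glial markers were also present. Radial glia and astrocyte markers were detected in both pups for 5 of 6 and summed to 3859 TPM in pup 1, against 3527 TPM in pup 3, with Fabp7 at 2791 and 3012 TPM and Slc1a3 at 532 and 281 TPM. Oligodendrocyte-lineage markers were detected in both for 4 of 6 and summed to 433 TPM in pup 1, against 249 TPM in pup 3. Of that list, Mbp, a myelin protein, stood at 302 TPM in pup 1, against 200 TPM in pup 3. Marker detection in both pups was 1 of 5 for microglia, with sums of 150 TPM in pup 1, against 80.4 TPM in pup 3. It was 2 of 5 for endothelium, with sums of 168 and 200 TPM, and 1 of 5 for muscle, with sums of 15.7 and 45.0 TPM and Myh3 and Myod1 at 0 counts. The sums of the neuronal, radial glial, oligodendrocyte and microglial lists were higher in pup 1, and those of endothelium and muscle in pup 3. A sum can rest on few genes. The median log2 ratio of the 4 endothelial markers tested was 0.33, opposite in direction to their sum. Of the 5 microglial markers, 2 were detected in pup 1 only and 2 in pup 3 only. Only 1 muscle marker had enough counts to be tested. Single markers ran both ways within lists: 4 of the 6 pan-neuronal markers were higher in pup 3, among them Elavl4 at 149 TPM in pup 1, against 328 TPM in pup 3. That list had a median log2 ratio of -0.06. Of the members, Dpysl2, Dpysl4 and Dpysl5 were higher in pup 1, while Dpysl3 and Crmp1 were higher in pup 3. The part of cell make-up in the members' levels was not tested.

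The transcript tables listed 21 transcripts for the 5 genes, of which 10 reached 5% of their gene's TPM in at least 1 pup. This percent is the authors' isoform percent. Dpysl2 had a single listed transcript, Dpysl2-201, with 14 exons and a coding sequence of 572 codons. The other 4 genes each had alternative first exons. By isoform percent the leading transcript of each of these 4 was the same in both pups, against 62.3% of the 6095 protein-coding genes that have 2 or more transcripts and were detected in both. Among the 5563 such genes with at least 50 expected counts in both pups, the share was 63.6%. By share of expected counts, 3 of the 4 members had the same leading transcript.

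**Figure D3:**
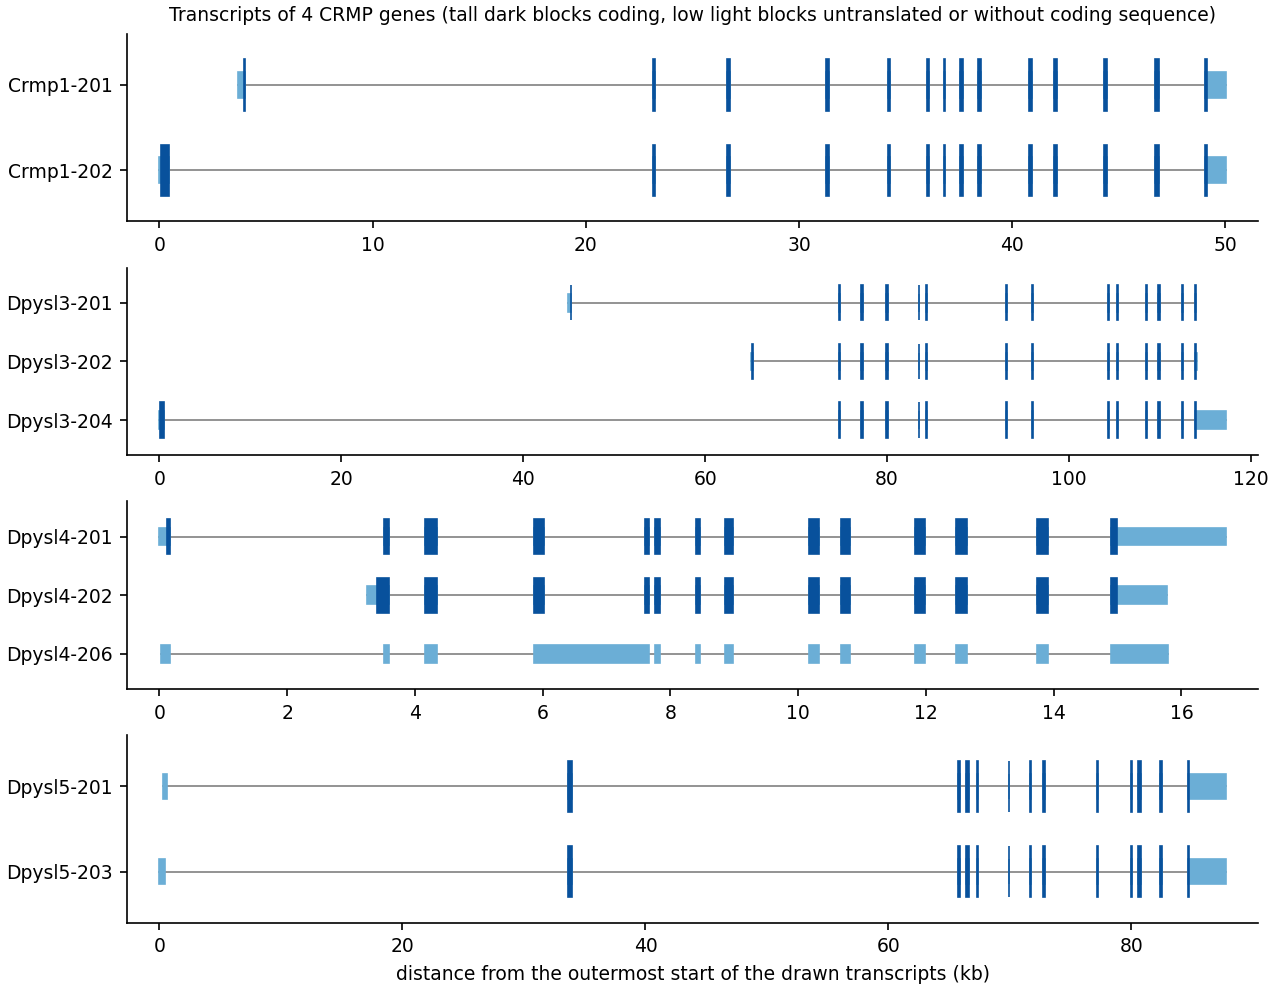
Exons of the main transcripts of Crmp1, Dpysl3, Dpysl4 and Dpysl5, drawn to scale as distance in kb from the outermost start, with an outline that keeps short exons visible. Tall dark blocks are coding, low light blocks are untranslated or belong to a transcript without coding sequence, and the coding transcripts of each gene start 330 bases or more apart.

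Crmp1 was read almost wholly from its inner start. Crmp1-201, with 572 codons, took 99.77% of the gene's TPM in pup 1, against 99.78% in pup 3. Crmp1-202, which begins 3684 bases upstream and has a longer first coding exon and 686 codons, took 0.23% and 0.22%. In expected counts, Crmp1-201 had 19401 in pup 1 and 25178 in pup 3, against 46.68 and 58.29 for Crmp1-202. The authors' posterior standard deviations on these counts were 19.77 in pup 1 and 23.66 in pup 3. The split rests on sequence that belongs to 1 transcript alone, which was 333 bases in Crmp1-201, all in the first exon, and 478 bases in Crmp1-202, of which 446 lie in the first exon.

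The 300 bases around each Crmp1 start, which differed widely in use, and around the outer Dpysl5 start are printed. The windows run from 250 bases before to 50 after a RefSeq start on the plus strand of GRCm38.p6. Of the 5 genes, such windows were matched for Crmp1 and Dpysl5 only, which set the choice. The outer Crmp1 window is chr5:37241808-37242107, whose start lies 22 bases before that of Crmp1-202. The inner one is chr5:37245514-37245813, at the start of Crmp1-201. The Dpysl5 window is chr5:30711314-30711613, at the start of Dpysl5-203, and it ends before the start of Dpysl5-201. Capitals mark the GC box GGGCGG on either strand, so that CCGCCC is its reverse complement, and matches may overlap one another.
Crmp1 outer start: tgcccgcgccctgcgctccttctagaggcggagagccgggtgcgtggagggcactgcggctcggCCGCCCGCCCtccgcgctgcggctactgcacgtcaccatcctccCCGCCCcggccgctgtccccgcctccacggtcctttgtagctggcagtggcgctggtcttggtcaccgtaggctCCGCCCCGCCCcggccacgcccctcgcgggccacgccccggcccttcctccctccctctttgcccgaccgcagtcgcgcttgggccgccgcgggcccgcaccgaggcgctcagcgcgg
Crmp1 inner start: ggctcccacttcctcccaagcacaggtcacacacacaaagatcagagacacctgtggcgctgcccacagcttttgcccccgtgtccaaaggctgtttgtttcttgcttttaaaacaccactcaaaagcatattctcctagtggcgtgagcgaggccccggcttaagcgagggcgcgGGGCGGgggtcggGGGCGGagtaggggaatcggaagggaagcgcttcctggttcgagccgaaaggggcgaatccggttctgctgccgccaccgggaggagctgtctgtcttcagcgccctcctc
Dpysl5 start: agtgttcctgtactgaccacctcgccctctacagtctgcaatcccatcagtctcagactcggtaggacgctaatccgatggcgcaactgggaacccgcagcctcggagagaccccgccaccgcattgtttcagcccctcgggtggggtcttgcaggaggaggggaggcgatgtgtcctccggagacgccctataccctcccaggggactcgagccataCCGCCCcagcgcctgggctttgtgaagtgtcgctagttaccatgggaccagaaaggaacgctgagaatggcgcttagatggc
The little-used outer Crmp1 window had a GC content of 77.0%, 41 CpG dinucleotides and 5 GC boxes. The inner window, at the start of the transcript with nearly all of Crmp1's TPM, had 61.0%, 20 and 2, and the Dpysl5 window had 61.0%, 19 and 1. Over all 32851 promoter windows of the same length, the median GC content was 52.7% and the median number of CpG dinucleotides was 7. A GC box was found in 35.7% of those windows. None of the 3 printed windows held CCAAT or TATAAA on either strand, motifs found in 37.4% and 13.6% of all windows. These are matches of letters only.

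Dpysl3 was divided among 3 starts. Dpysl3-201, with 570 codons, was the leading transcript by isoform percent in both pups, at 59.89% in pup 1 and 63.04% in pup 3. Dpysl3-204, which starts 44909 bases upstream of it and has 683 codons, took 40.11% in pup 1 and 20.52% in pup 3. Dpysl3-202, with 568 codons, took 0% in pup 1 and 16.44% in pup 3. Its expected count was 0 in pup 1, with a posterior standard deviation of 49.1, and 5452 in pup 3, with one of 466.

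The order of the Dpysl3 forms depended on whether reads or length-corrected levels were used. By share of the gene's expected count, Dpysl3-204 led in pup 1 with 64.2%, against 35.8% for Dpysl3-201. In pup 3 Dpysl3-201 led with 47.2%, against 41.2% for Dpysl3-204. Of the 3700 bases found in Dpysl3-204 and in neither of the others, 457 lie in the first exon and 3243 in the last. Its count thus covers the long 3′ end as well as the outer start, and the tables do not separate them. Dpysl3-201 had 388 bases of its own and Dpysl3-202 had 207, all in their first exons.

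By isoform percent, Dpysl4 was led by a form annotated with a start inside the gene. Dpysl4-202, with 593 codons and a start 3246 bases downstream of Dpysl4-201, took 72.34% in pup 1 and 64.01% in pup 3. Dpysl4-201, the 572-codon form whose first coding exon is printed above, took 12.37% and 32.92%. Its expected count was nearly equal in the pups, 1558 in pup 1 and 1610 in pup 3, while that of Dpysl4-202 was 6937 and 2383. In Dpysl4-201, 927 of the 1088 bases not found in Dpysl4-202 lie in the last exon. Dpysl4-202 had 263 bases of its own, all in its first exon. The split between these forms thus covers the long 3′ end as well as the start, and the counts do not separate them.

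Transcripts of Dpysl4 and Dpysl5 annotated as retaining an intron took a larger share in pup 1. The 2 such transcripts of Dpysl4 together took 9.63% of its TPM in pup 1, against 0.59% in pup 3, or 1344 and 28.51 expected counts. Dpysl4-206, in which the reads of 1 long intron are counted as exon, accounted for 7.08% and 0.21%. In Dpysl5 such transcripts took 3.34% in pup 1 and 0.12% in pup 3, from only 62.45 and 1.75 expected counts. These were counts of Dpysl5-205, at 0.395% and 0.0143% of the gene's expected count. These transcripts were singled out after their values were seen.

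Dpysl5 used a pair of neighbouring starts that encode the same number of codons, 564. Dpysl5-203, the outer one, took 59.45% in pup 1 and 50.44% in pup 3, and Dpysl5-201, which starts 330 bases further in, took 37.21% and 49.25%. The authors' posterior standard deviations of their counts were 541 and 393 in pup 1 and pup 3. In pup 3 the difference between 6303 counts for Dpysl5-203 and 5950 for Dpysl5-201 was smaller than that error. In pup 1 they had 9808 and 5934 counts.

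**Figure D4:**
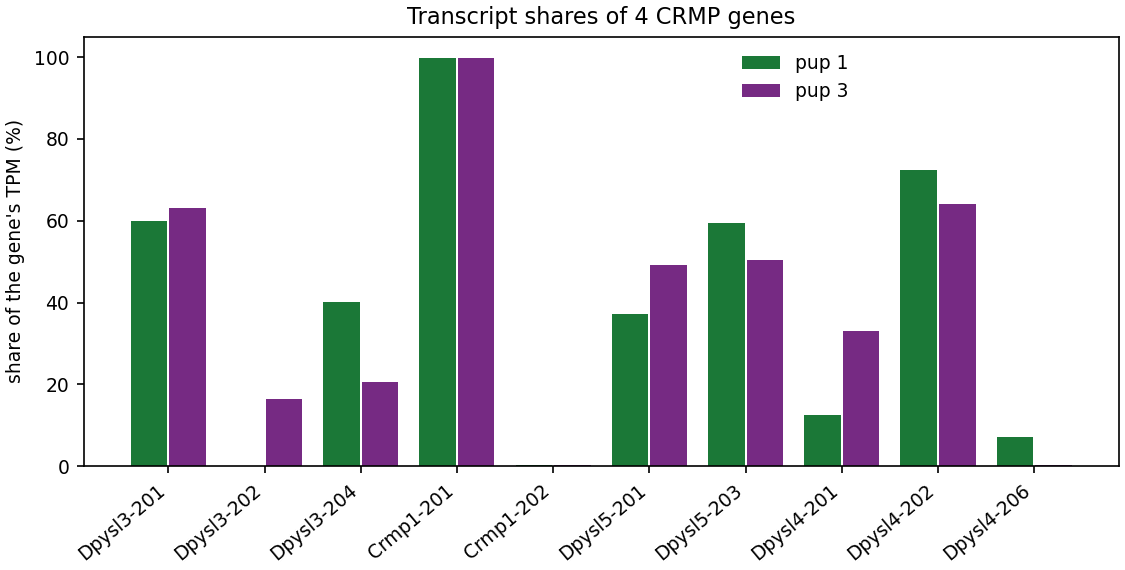
Authors' isoform percent of each main transcript of Crmp1, Dpysl3, Dpysl4 and Dpysl5 in pup 1 and pup 3. Crmp1-201 is near 100% in both, whereas Dpysl3-204 is at 40.11% in pup 1 and 20.52% in pup 3 and Dpysl4-201 at 12.37% and 32.92%.

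Genes on the other strand can add reads where counting ignores strand, and the sources used here do not say whether strand was used. Evc overlaps the 3′ end of Crmp1 by 3036 bases on the opposite strand. It had 1 expected count in pup 1 and 0 in pup 3.

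The signalling and cytoskeletal partners of the family formed 5 lists of 54 genes. Of these, 47 were detected in both pups, or 87.0%, beside the 37.8% of all protein-coding genes. Among the 52 with at least 50 expected counts in a library, 10 were at least 4-fold higher in pup 1 and 4 at least 4-fold higher in pup 3, beside 27.7% and 18.3% of all genes tested. These shares are not matched to the level of the partners, here or in the lists below. Many partners have a mean of at least 50 TPM, where only 4.40% and 6.39% of genes passed 4-fold with pup 1 or pup 3 higher. The median log2 ratio of the 52 partners was -0.01, beside 0.14 for all genes tested. Dpys, the metabolic homologue, had 0 counts in both pups, where 3 counts would be 0.113 TPM in pup 1, against 0.128 TPM in pup 3.

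Of 13 genes for semaphorin ligands, their receptors and proteins linked to those receptors, 10 were detected in both pups. Of the 12 tested, 3 were at least 4-fold higher in pup 1 and 3 in pup 3, which is near the 27.7% and 18.3% of all genes tested, and the median log2 ratio was 0.56. The ligand Sema3a stood at 43.8 TPM in pup 1, against 1.99 TPM in pup 3, which is 22.1-fold. The related ligands ran the other way: Sema3f had 6.84 TPM in pup 1, against 56.3 TPM in pup 3, and Sema3c had 0 counts in pup 1 and 19.0 TPM in pup 3, at least 329-fold higher in pup 3 against a floor of 3 counts per library. This bound and those given below for other genes at 0 counts cover counting error only. A transcript missed at 13 pg of input would also read 0, so they do not bound the difference in the tissue.

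Among the receptors, Nrp1, the neuropilin that binds Sema3a, had 44.1 TPM in pup 1, against 14.5 TPM in pup 3. Its plexin partners differed in direction: Plxna3 had 39.3 TPM in pup 1, against 0 counts in pup 3, at least 444-fold higher in pup 1, while Plxna2 had 5.44 TPM in pup 1, against 23.7 TPM in pup 3. L1cam, an adhesion molecule in the same receptor complex, was the most abundant of the list at 170 and 97.4 TPM. Mical3, of the actin-oxidising Mical enzymes, had 10.1 TPM in pup 1, against 1.51 TPM in pup 3. Fes, a tyrosine kinase linked to plexins, was not detected, with 2 counts in pup 1 against 0 in pup 3.

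Kinases and phosphatases that act on CRMPs were detected in both for 12 of 14 genes. Of these 14, 3 were at least 4-fold higher in pup 1 and 0 in pup 3, beside 27.7% and 18.3% of all genes tested. The median log2 ratio was -0.10. The priming kinase Cdk5 had 117 TPM in pup 1, against 82.2 TPM in pup 3, and Gsk3b, which acts after it, had 116 and 106 TPM. Ppp2r2b, a regulatory subunit of protein phosphatase 2A, was the most abundant of the list at 144 TPM in pup 1, against 230.1 TPM in pup 3. The tyrosine kinase Fyn was 9.09-fold higher in pup 1, at 175 and 19.2 TPM. Dyrk2, another priming kinase, had 14.7 TPM in pup 1, against 0 counts in pup 3, at least 182-fold higher in pup 1. The Cdk5 activator Cdk5r2 had 5.56 TPM in pup 1, against 0 counts in pup 3, at least 91.3-fold higher in pup 1.

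The microtubule and transport partners, which include the tubulins that CRMP2 binds and the kinesin subunits it links them to, were abundant. Of 12 genes, 11 were detected in both. None of these 11 passed 4-fold, but all have a mean above 50 TPM, where only 4.40% and 6.39% of genes passed it with pup 1 or pup 3 higher. The median log2 ratio was -0.42. Tuba1a, the main α-tubulin of young neurons, stood at 17760 TPM in pup 1, against 17262 TPM in pup 3. Tubb2a had 2466 TPM in pup 1, against 4727 TPM in pup 3, and Tubb3, the neuronal β-tubulin, had 3905 and 2044 TPM. Numb, an endocytic adaptor bound by CRMP2, was not detected, with 1 count in pup 1 against 0 in pup 3.

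Actin regulators were detected in both for 9 of 10 genes. Of these 10, 3 were at least 4-fold higher in pup 1 and 0 in pup 3, beside 27.7% and 18.3% of all genes tested. The median log2 ratio was 0.39. The small GTPases were led by Cdc42 at 856 TPM in pup 1, against 1354 TPM in pup 3, with Rhoa at 228 and 83.6 TPM and Rac1 at 94.2 and 14.0 TPM. Cyfip2, a subunit of the WAVE complex that drives actin branching, had 64.8 TPM in pup 1, against 128 TPM in pup 3. Another subunit of that complex, Wasf1, had 42.0 TPM in pup 1, against 0.480 TPM in pup 3, and Wasf3 had 1.63 TPM in pup 1, against 0 counts in pup 3, at least 21.7-fold higher in pup 1.

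The 5 channel and SUMO genes were all detected in both pups. Of these 5, 1 was at least 4-fold higher in pup 1 and 1 in pup 3, beside 27.7% and 18.3% of all genes tested. Sumo2, a small protein tag, had 976 TPM in pup 1, against 1017 TPM in pup 3. Cacna1b, the N-type calcium channel that CRMP2 binds, had 11.97 TPM in pup 1, against 55.0 TPM in pup 3. Scn9a, a sodium channel whose surface level depends on that tag in sensory neurons, had 10.3 TPM in pup 1, against 1.38 TPM in pup 3. The median log2 ratio of this list was -0.06.

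**Figure D5:**
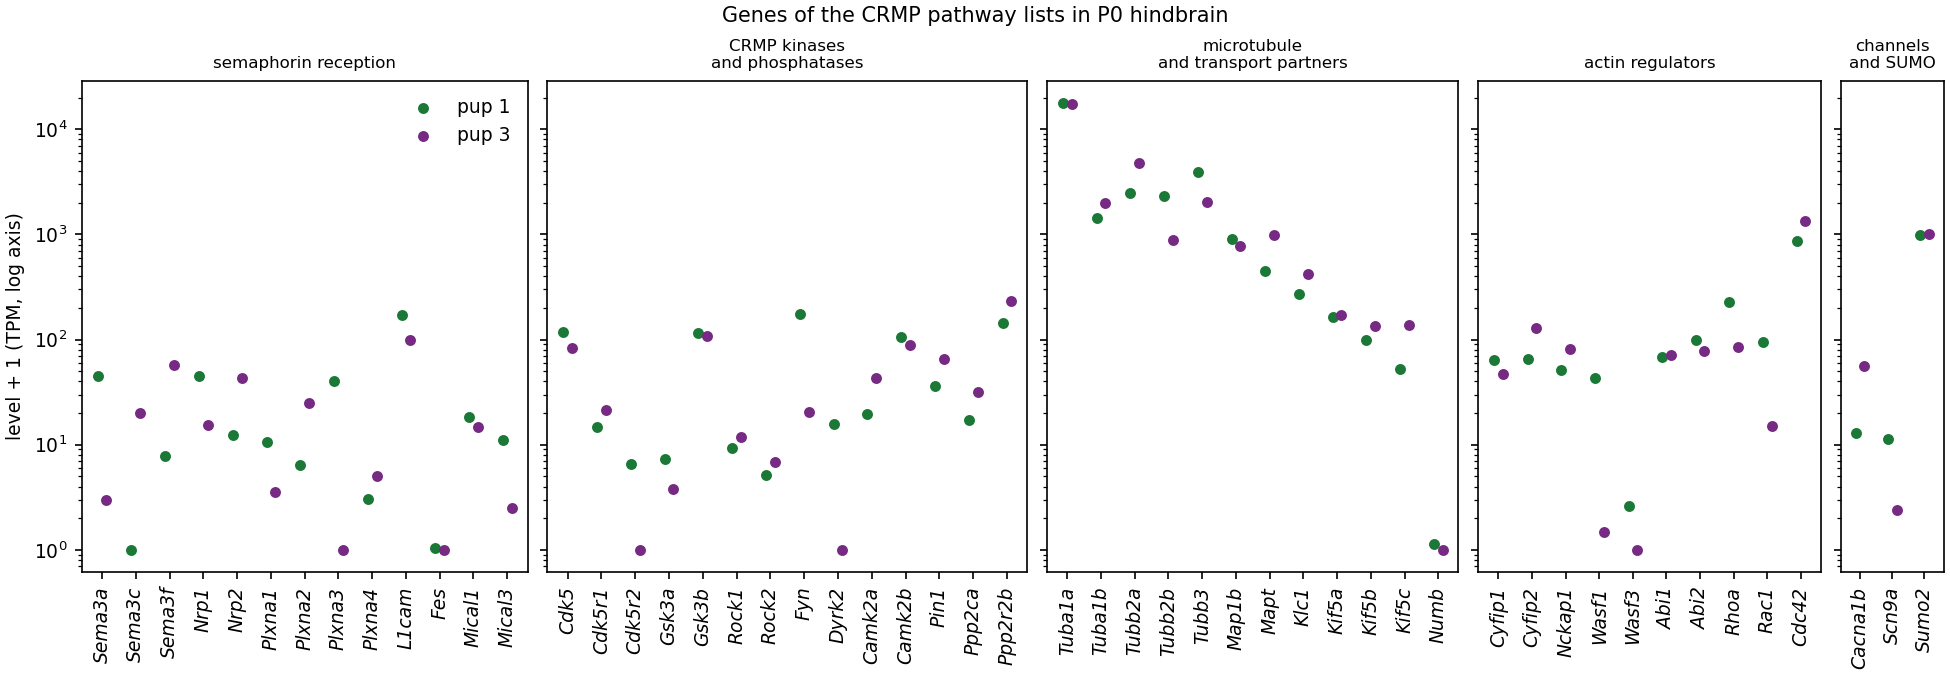
Level plus 1 in TPM (log axis) of partner genes in pup 1 and pup 3, in panels by list. The tubulins lie at the top, each within 4-fold between pups, while Sema3c, Plxna3, Dyrk2, Cdk5r2 and Wasf3 sit at the bottom of the axis in 1 pup with 0 counts.

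The genes most like each member in level were named by the distance between log2 values of TPM plus 1 over the 2 libraries, among all protein-coding genes. With only 2 libraries, likeness means a similar level in each pup and no more. Nearest to Dpysl2 were Rps18 and Rpl13a, which encode ribosomal proteins, and the initiation factor Eif1, at distances of 0.149, 0.172 and 0.151. For Dpysl3 they were Atp5j2, an ATP synthase subunit, Itm2b and Gng3, at 0.0993, 0.148 and 0.153. For Crmp1 they were Btf3, Gabarapl2 and Mlf2, at 0.0630, 0.0892 and 0.0916. For Dpysl5 they were Rsu1, Olfm1 and Naa35, the first at 156 TPM in pup 1, against 135 TPM in pup 3, and for Dpysl4 they were Ten1, Plat and Dld. Their distances ran from 0.00356 to 0.0613.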

How the data were processed

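The libraries of pup 1 and pup 3 (n = 1 each) form 1 group, and no test between groups exists. The authors deposited gene and transcript tables on mm10 with GENCODE M4, per the deposited notes. Per the file headers, the tables give an expected count, with reads shared among transcripts split by estimate, and TPM and FPKM relative to everything listed, spike-ins included. Per the file headers the transcript tables also give isoform percent, the percent of a gene's TPM, and posterior means and standard deviations. The sources used here do not give the aligner, its version or the strand setting.

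Of 43346 mouse identifiers, 42462 (98.0%) matched GENCODE M21 (GRCm38). TPM was rescaled over 43309 nuclear genes. Detection needed 5 expected counts. A 4-fold difference needed 50 in a library, a pseudocount of 1 entered log2 ratios, and 0 counts were bounded at 3 per library, for counting error only. Fold calls were tested on simulated counts that hold counting error alone. The simulation has no amplification noise, so it does not show how reliable the calls are in these libraries. edgeR 4.0.16 and DESeq2 1.42.0 (R 4.3.3) gave scaling factors on rounded expected counts. Python 3.11.15, pandas 2.3.3 and Biopython 1.88 did the rest. Named partners are the 3 most abundant of each list, those not detected and those past 4-fold. Named markers are the 2 most abundant and those at 0. Members and lists were chosen with earlier results of these data known. Protein sequences were not used here, so coding sequences were compared. Some genes of the lists enter the counts and sums and are not reported here by name.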

Additional observations from a re-analysis of the deposited data

How the results depend on the processing

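No member changed direction under any of 11 alternative scalings, pseudocounts or length settings, and none passed 4-fold. The log2 ratio of pup 1 over pup 3 ranged from 1.07 to 1.26 for Dpysl2, -0.91 to -0.39 for Dpysl3, -0.64 to -0.45 for Crmp1, 0.12 to 0.29 for Dpysl5 and 1.05 to 1.22 for Dpysl4. TMM and DESeq2 size factors, applied to counts without length correction, moved the median log2 ratio of all genes tested by 0.11 and 0.14 from that of TPM. CPM, also without length correction, moved it by -0.03. The summed level of 2703 became 1613 in FPKM, 6318 in CPM and 3071 TPM over protein-coding genes. At 2-fold, 2 members passed, not 0. Leaving out each replicate gave summed levels of 2448 to 2958 TPM, a Dpysl2 share of 32.0% to 59.1%, a Dpysl3 share of 18.4% to 39.3%, and 48 to 51 partner genes detected, beside 47 in both. By share of expected counts, 3 of 4 members had the same leading transcript. Genes at least 4-fold higher in pup 1 numbered 3120, or 148 at a mean of at least 50 TPM. Those higher in pup 3 numbered 2060, or 215 at that level and 3224 at 2-fold. No paired analysis was possible because there is only 1 group. With 2 libraries the spread is that between these samples, which may be technical.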

Other observations

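Dpysl2 and Dpysl4 kept nearly the same ratio to each other in both pups, although each differed over 2-fold between them. Dpysl2 stood at 9.93 times the level of Dpysl4 in pup 1 and 10.1 times in pup 3. The ratio of Dpysl5 to Dpysl4 was 0.888 in pup 1 and 1.73 in pup 3. These ratios were chosen after their values were seen, and 2 libraries give no measure of how often such a match occurs.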
